A study of Rattus norvegicus with 6 samples.

Results

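The immediate early genes examined here are 10 members, Fos, Fosb, Jun, Junb, Egr1, Atf3, Ier2, Nr4a1, Dusp1 and Zfp36. They were chosen by gene symbol among the probes other than controls, out of 15521 genes named on the arrays. Earlier results of these data were known when the list was chosen. Its counts set beside the shares of all genes are therefore descriptive. Each had 1 probe, each probe was well above background in both colours on all 6 arrays, and all 10 were among the 12818 genes that passed the filter on dim probes. By their labels the arrays measured kidney RNA of Han:SPRD rats. In this strain the Cy allele, a spontaneous mutation of Anks6, causes polycystic kidney disease.

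Red dye (Cy5) was labelled as pooled kidney RNA of Cy/Cy, Cy/+ or +/+ rats at 7 or at 3 days of age. Green dye (Cy3) was labelled as a +/+ pool of the same age, the reference. By these labels every group was Han:SPRD kidney, with no treatment and 1 array per genotype and age. The markers of the arrays labelled +/+ go against theirs, as given below. The mutation is inherited and present in every cell, and the number of animals in a pool is not given. Dyes were not swapped, the 3 arrays of 7 days lay on one slide and the 3 of 3 days on another, and each genotype kept the same position on both slides. Age and slide cannot be told apart, nor can genotype and position, and nothing says how the pools were drawn. The p-values therefore reflect the scatter among these arrays alone, which may be technical.

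Immediate early genes are transcribed without new protein synthesis when growth factors, hormones, injury or ischaemia activate MAP kinase and cAMP signalling. Their mRNAs are short-lived. Fos and Jun proteins pair through leucine zippers as the transcription factor AP-1, Egr1 and Nr4a1 are further transcription factors, and Dusp1 and Zfp36 act as brakes, the first by removing phosphate from MAP kinases and the second by speeding the decay of AU-rich mRNAs.

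The probe sequences of 3 members, an AP-1 subunit of each family and a brake, are shown because every value of a gene comes from a single 60-base probe of this kind. They are given 5′ to 3′ with no base marked. The Fos probe lies at chr6:109564555-109564614 on the plus strand, the Junb probe at chr19:24837607-24837666 on the plus strand, and the Dusp1 probe at chr10:16945391-16945710 on the plus strand, all in build rn3 as the array files give them. The Dusp1 interval covers 320 bases for a probe of 60. The Fos probe reads part of the leucine zipper. No exon or UTR annotation of that build was used here.
Fos: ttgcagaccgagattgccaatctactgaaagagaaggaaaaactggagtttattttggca
Junb: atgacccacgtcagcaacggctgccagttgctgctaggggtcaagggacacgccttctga
Dusp1: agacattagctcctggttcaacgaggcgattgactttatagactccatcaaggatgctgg

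The arrays labelled +/+ went against their label and are named as such throughout. By their labels they set +/+ against +/+ RNA, yet the dyes were 2-fold or more apart for 19.7% of genes at 7 days and 24.3% at 3 days, where the 4 mutant arrays had 0.0936% to 1.35%. For the 8 kidney markers (such as Umod, Aqp2 and Nphs1) their median log2 ratio was -3.92 at 7 days and -4.52 at 3 days, and for the 4 liver markers it was 5.98 and 6.02. Muscle, lung and leukocyte markers were also high in Cy5, with medians of 1.98 to 5.88. The Cy3 channel of these arrays also held such transcripts. The muscle creatine kinase Ckm had a level there of 13.00 at 7 days and 11.92 at 3 days, against 6.69 to 7.43 in Cy3 of the mutant arrays, so these hybridisations stand apart as references too. On all mutant arrays the 8 kidney markers were well above background in both dyes, and 0 of the 3 lung markers were. Of the 4 liver markers 2 were in each dye, and of the 5 measured leukocyte markers 3 were. Of the 5 muscle markers 4 were in Cy3 and 3 in Cy5. The spot signals of an array had medians of 172 to 336 in Cy5 and 111 to 157 in Cy3, over backgrounds of 36 to 49. Precision is limited by how few arrays there are.

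Some members differed between the ages, which cannot be told apart from the slides. Fos, Junb, Jun, Atf3 and Nr4a1 were lower in 7-day than in 3-day kidneys, by 1.47-fold (Jun) to 1.93-fold (Fos), in a limma fit over the Cy/Cy, Cy/+ and reference pools that compared the ages within each pool. Thus 5 of 10 members were called lower at an adjusted p under 0.05, where 3.23% of the 12818 genes tested were. No member was called higher, where 3.81% of genes were. The other 5, Egr1, Zfp36, Dusp1, Ier2 and Fosb, did not pass the test, and 2 of these had an unadjusted p under 0.05. With the called members that made 7 of 10, and 3774 of the 12818 genes had such a p.

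The levels below are log2 channel levels after normalization, which can be compared between pools for a gene but not between genes. Fos, the founding AP-1 subunit, had levels of 7.16 in Cy/Cy and 7.45 in Cy/+ kidneys at 7 days, against 8.05 in each of them at 3 days. In the +/+ reference it had 7.29, 7.32 and 7.40 in the 3 hybridisations at 7 days, against 8.47, 8.73 and 8.89 at 3 days. Every 7-day value of these pools lay below every 3-day value. The fitted difference was -0.95 ± 0.15 (SE, 3 pools per age, adjusted p = 0.0319).

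Junb, a Jun family partner of Fos, had 7.61 in Cy/Cy and 7.75 in Cy/+ kidneys at 7 days, against 8.39 and 8.28 at 3 days. The reference hybridisations spanned 7.44 to 7.68 at 7 days and 8.23 to 8.51 at 3 days. Here too the ages did not overlap, and the fitted difference was -0.71 ± 0.08 (SE, 3 pools per age, adjusted p = 0.0249). Jun, the founding member of that family, had 13.00 in Cy/Cy and 12.76 in Cy/+ kidneys at 7 days, against 13.53 and 13.30 at 3 days. Its reference values were 12.99 to 13.03 at 7 days and 13.52 to 13.69 at 3 days, again apart. Jun fell by 0.56 on the log2 scale (SE 0.07, 3 pools per age, adjusted p = 0.0249). The Jun probe was printed 10 times on each array, and the SD of its log2 ratio over those spots was 0.021 to 0.0493.

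Fosb, a further Fos family subunit, was the 1 member with a positive fitted value. It had 7.31 in Cy/Cy and 7.54 in Cy/+ kidneys at 7 days, against 7.38 and 7.16 at 3 days, and the reference spanned 7.16 to 7.65 and 7.04 to 7.31. The ages overlapped, and the fitted difference of 0.18 ± 0.10 (SE, 3 pools per age) did not pass (adjusted p = 0.285, 95% interval -0.07 to 0.44).

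Among the other transcription factors, Nr4a1, an orphan nuclear receptor induced like Fos, had 11.17 in Cy/Cy and 10.99 in Cy/+ kidneys at 7 days, against 11.75 and 11.45 at 3 days. The reference had 11.16 to 11.23 at 7 days and 12.35 to 12.56 at 3 days. No 7-day value reached a 3-day value, but the step in the reference, -1.24, was larger than the steps of -0.58 in Cy/Cy and -0.45 in Cy/+ kidneys. The fit gave -0.76 ± 0.16 (SE, 3 pools per age, adjusted p = 0.049), and the p was 0.0595 without the filter on dim probes.

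Atf3, a stress-induced factor that pairs with Jun proteins, had 9.5 in Cy/Cy and 9.81 in Cy/+ kidneys at 7 days, against 10.35 and 10.17 at 3 days. The reference spanned 9.21 to 9.34 at 7 days and 10.24 to 10.43 at 3 days, and the ages did not overlap. The fitted difference was -0.75 ± 0.14 (SE, 3 pools per age, adjusted p = 0.0396). Egr1, a zinc finger factor, had 11.46 in Cy/Cy and 11.57 in Cy/+ kidneys at 7 days, against 11.56 and 11.88 at 3 days, so that the mutant pools overlapped between ages. Its reference values were 11.33 to 11.40 and 11.90 to 11.98, which were apart. Egr1 gave -0.33 ± 0.10 (SE, 3 pools per age) and did not pass (adjusted p = 0.111). Ier2, a small nuclear protein, had the fitted value nearest 0, at -0.09 ± 0.07 (SE, adjusted p = 0.438), with values of 13.55 to 13.96 over all these channels.

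Of the brakes, Zfp36 had 6.95 in Cy/Cy and 6.99 in Cy/+ kidneys at 7 days, against 7.19 and 7.18 at 3 days, and 6.82 to 6.85 against 7.15 to 7.35 in the reference. The ages did not overlap, but the fitted difference of -0.29 ± 0.08 (SE, 3 pools per age) did not pass (adjusted p = 0.082). Dusp1 had 8.99 in Cy/Cy and 9.35 in Cy/+ kidneys at 7 days, against 9.02 and 9.58 at 3 days, with a fitted difference of -0.15 ± 0.08 (SE, 3 pools per age, adjusted p = 0.25).

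**Figure D1:**
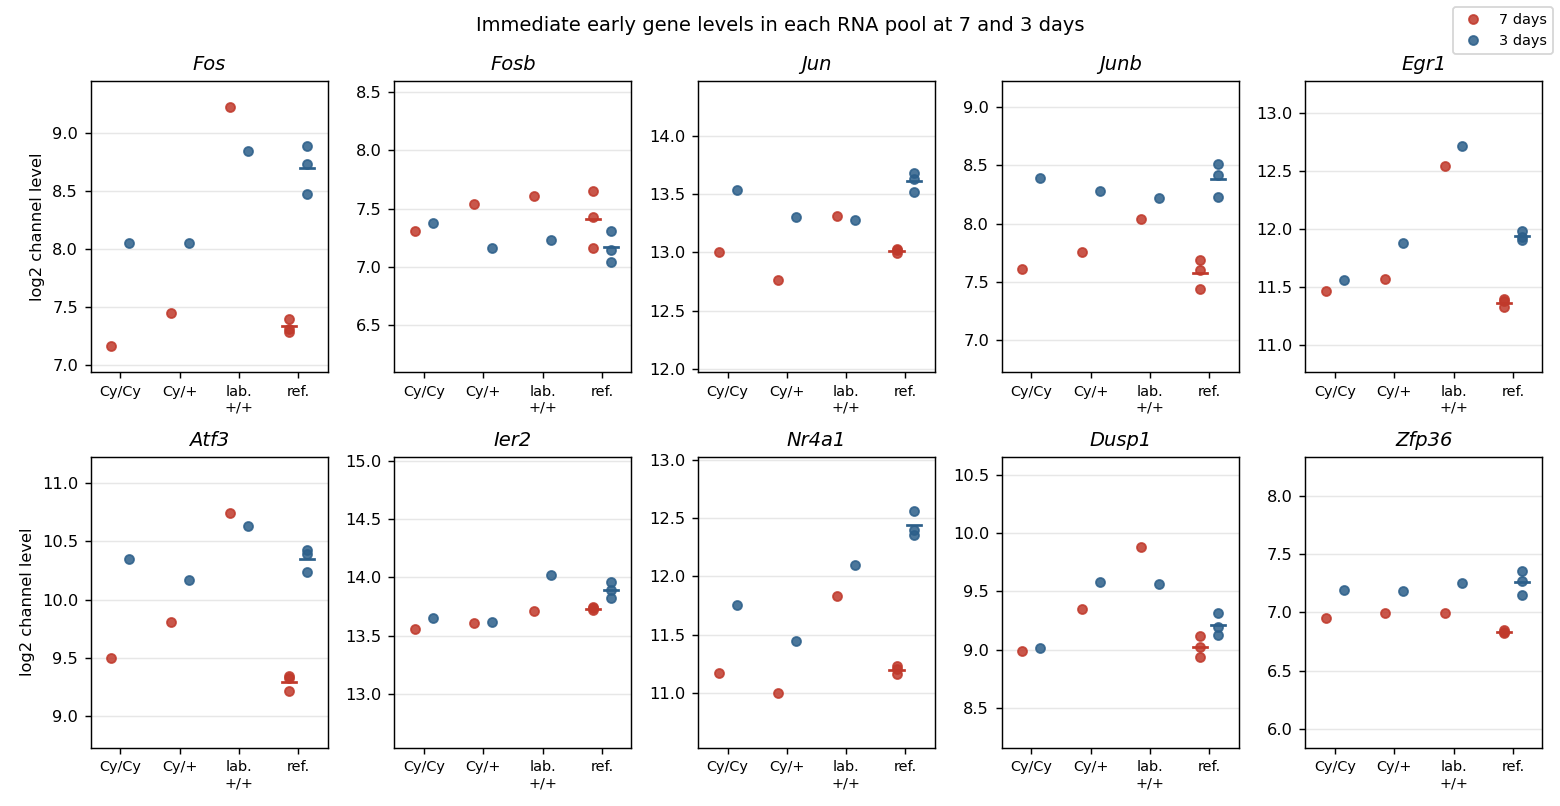
Log2 channel level of each immediate early gene (vertical axes, each spanning the same range) in the Cy/Cy, Cy/+ and labelled +/+ (lab. +/+) Cy5 pools and in the +/+ Cy3 reference (ref.). Red points are 7 days and blue points 3 days, 1 point per array, and the short bar is the mean of the 3 reference hybridisations. Fos, Jun, Junb, Atf3 and Nr4a1 lie lower at 7 than at 3 days in the Cy/Cy, Cy/+ and reference pools, and in the labelled +/+ pool Fos, Atf3 and Jun do not.

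The age calls rest on few pools. No member was called (limma) without the reference pool, without the Cy/Cy pool, when the Cy5 pool labelled +/+ was added, or with the scanner software's processed signals, where 0, 2, 0 and 0 of all genes were called. The adjusted p of the 5 genes was 0.0594 to 0.241 in these settings. The signs of all 10 fitted values were the same in each of these settings. With the software's signals the differences of the dim probes were larger, -1.44 for Fos, -0.72 for Zfp36 and 0.37 for Fosb.

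In the reference alone, where the 3 hybridisations of an age may be of the same pool and give no test, 9 of 10 members were lower at 7 days with no overlap between the ages. The same held for 19.6% of all genes. Fos at 2.57-fold, Nr4a1 at 2.37-fold and Atf3 at 2.08-fold lower were 3 members at least 2-fold apart, as were 0.296% of genes. The median of the members' changes was -0.58 in the reference, -0.39 in the Cy/Cy pool and -0.33 in the Cy/+ pool, and all genes had medians near 0 in each. Without the Cy3 channel of the arrays labelled +/+, 9 of 10 members still did not overlap (37.8% of genes), and 3 were at least 2-fold lower (0.382% of genes), Fos at 2.84-fold, Nr4a1 at 2.40-fold and Atf3 at 2.11-fold. The fit over pools called 5 members with that channel left out. In the Cy5 pool labelled +/+ the median was -0.07, and Fos was 0.38 higher at 7 than at 3 days.

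Some markers of other cells also differed with age. The 2 measured erythroid markers of 3 listed had summed linear levels of 10620 in Cy/Cy and 7762 in Cy/+ kidneys at 7 days, against 14790 and 9765 at 3 days, and 13730 against 20980 in the reference. Of them 1 was called lower at 7 days. Summed leukocyte markers, 5 measured of 6, were 1454, 1562 and 1859 in the Cy/Cy, Cy/+ and reference pools at 7 days, against 2107, 2036 and 2073 at 3 days, with 0 called. The brightest genes weigh most in such sums. Of the 5 leukocyte markers 3 had fitted differences below 0 and 2 above, and their median change in the reference was 0.03. The 4 liver markers had positive fitted differences, with a median of 0.49 and 0 called. Their summed level was 2081 in Cy/Cy, 476 in Cy/+ and 1460 in the reference at 7 days, against 466, 496 and 911 at 3 days. These reference sums include Cy3 of the arrays labelled +/+, which held transcripts of other tissues. In Cy3 of the mutant arrays alone the liver sum was 819.1 at 7 days and 429.5 at 3 days. There the erythroid sum was 14380 against 22450, and the leukocyte sum 1746 against 2065. The smooth muscle list, 2 measured of 3, had a median of -0.21 with 0 called. The endothelial (3 of 3) and kidney (8 of 8) markers also had 0 called. The part of other cells in the age differences was not tested, and in pooled tissue fewer cells of a type and less RNA per cell cannot be told apart.

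**Figure D2:**
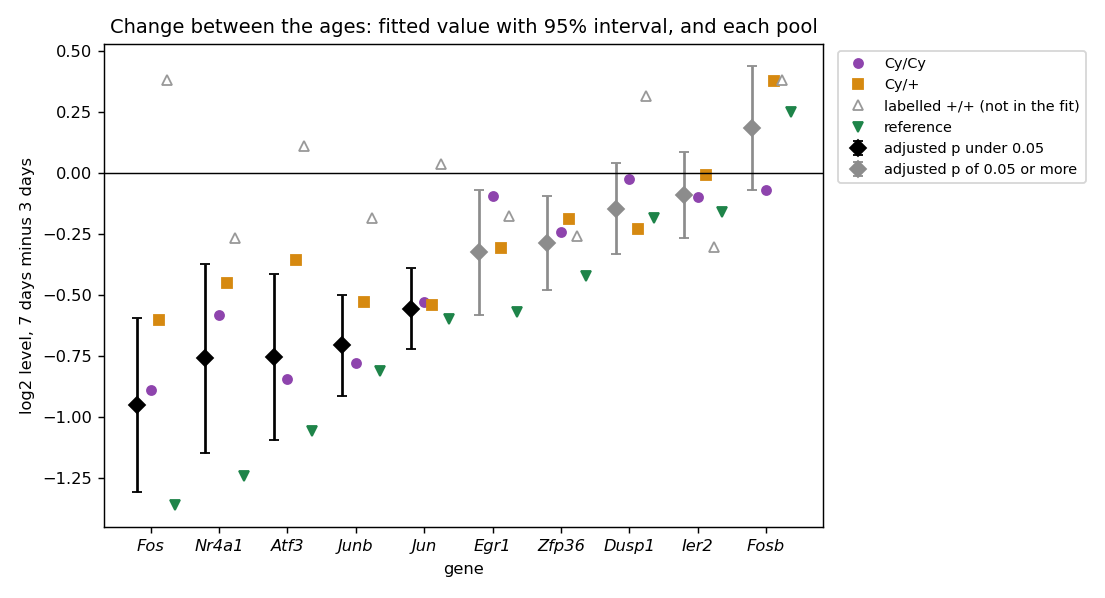
Difference in log2 level between 7 and 3 days (vertical axis) for each gene, ordered by the fitted value. Diamonds with bars are the limma estimate and its 95% interval, black where the adjusted p was under 0.05, and the smaller symbols are the single differences of the Cy/Cy, Cy/+, labelled +/+ and reference pools. The reference shows the largest drop for Fos, Nr4a1 and Atf3, and the labelled +/+ pool, which was not in the fit, lies above 0 for Fos, Atf3, Dusp1, Jun and Fosb.

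Set against their own reference, Fos and Nr4a1 had the lowest ratios of the members in both mutants at 3 days, with 1 array per genotype and age. The log2 ratio of Fos was -0.15 in Cy/Cy and 0.17 in Cy/+ kidneys at 7 days, and -0.83 and -0.67 at 3 days. Nr4a1 had -0.04 in Cy/Cy and -0.23 in Cy/+ kidneys at 7 days, and -0.81 and -0.95 at 3 days. These 2 of 10 members were at least 1.5-fold below the reference on both 3-day mutant arrays, where 0.242% of all genes were. At 7 days 0 members were 1.5-fold apart from it on either mutant array, where 3.27% of genes were.

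The channel levels hold the same ratios within each array, so they are no separate support. They set each pool beside all 3 reference hybridisations of its age. At 3 days the Fos levels of both mutant pools, 8.05, lay below the lowest of the 3 reference values, 8.47. At 7 days the reference spanned 7.29 to 7.40, with Cy/Cy kidneys below it and Cy/+ kidneys above it. For Nr4a1 at 3 days, the mutant values of 11.75 in Cy/Cy and 11.45 in Cy/+ kidneys lay below a reference of 12.35 to 12.56. At 7 days the Cy/Cy value of 11.17 lay within the reference span of 11.16 to 11.23, and the Cy/+ value of 10.99 below it.

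The difference in mutant ratio between the ages did not pass the test. In the limma fit with age as a term over the 4 mutant arrays, the ratio was higher at 7 than at 3 days by 0.76 ± 0.10 for Fos (SE, adjusted p = 0.129) and by 0.75 ± 0.10 for Nr4a1 (SE, adjusted p = 0.125). Of the members 0 were called, and of all genes 0.0468%. An unadjusted p under 0.05 was found for 5 members, and for 1233 of the 12818 genes. Only 1 residual degree of freedom was left in this fit. On the 3-day arrays the erythroid markers had median log2 ratios of -0.59 in Cy/Cy and -1.09 in Cy/+ kidneys, and the smooth muscle markers, 2 measured of 3, had 0.18 and 0.94. Their part in the Fos and Nr4a1 values was not tested.

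Averaged over both ages, no member passed the test against the reference in Cy/Cy kidneys. The limma fit called 0 members, none with an unadjusted p under 0.05, and 0% of genes, while 1183 genes had an unadjusted p under 0.05. Fos stood at -0.49 ± 0.23 (SE, n = 2 arrays, adjusted p = 0.575) and Nr4a1 at -0.42 ± 0.23 (SE, n = 2 arrays, adjusted p = 0.611). The remaining 8 lay between -0.18 (Ier2) and 0.06 (Atf3).

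In Cy/+ kidneys the same fit called 0 members and 7.28% of genes. An unadjusted p under 0.05 was found for 4 members, and for 3758 of the 12818 genes. Jun was lower on both arrays, with ratios of -0.26 at 7 days and -0.33 at 3 days and a mean of -0.29 ± 0.07 (SE, n = 2 arrays, adjusted p = 0.0576). Dusp1 was higher on both, at 0.24 and 0.27, with a mean of 0.26 ± 0.07 (SE, n = 2 arrays, adjusted p = 0.0889). Ier2 averaged -0.20 ± 0.07 (SE, adjusted p = 0.137), Nr4a1 -0.59 ± 0.23 (SE, adjusted p = 0.152) and Fos -0.25 ± 0.23 (SE, adjusted p = 0.51). With the slide as a block Nr4a1 (adjusted p = 0.0102) and Jun (adjusted p = 0.0446) passed. The signs of Jun and Ier2 turned under median centring, to 0.34 and 0.48, a setting in which the median of all genes shifted by up to 0.371. Relative to that shift Jun stood at 0.05 at 7 days and 0.03 at 3 days, and Ier2 at 0.24 and 0.12.

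**Figure D3:**
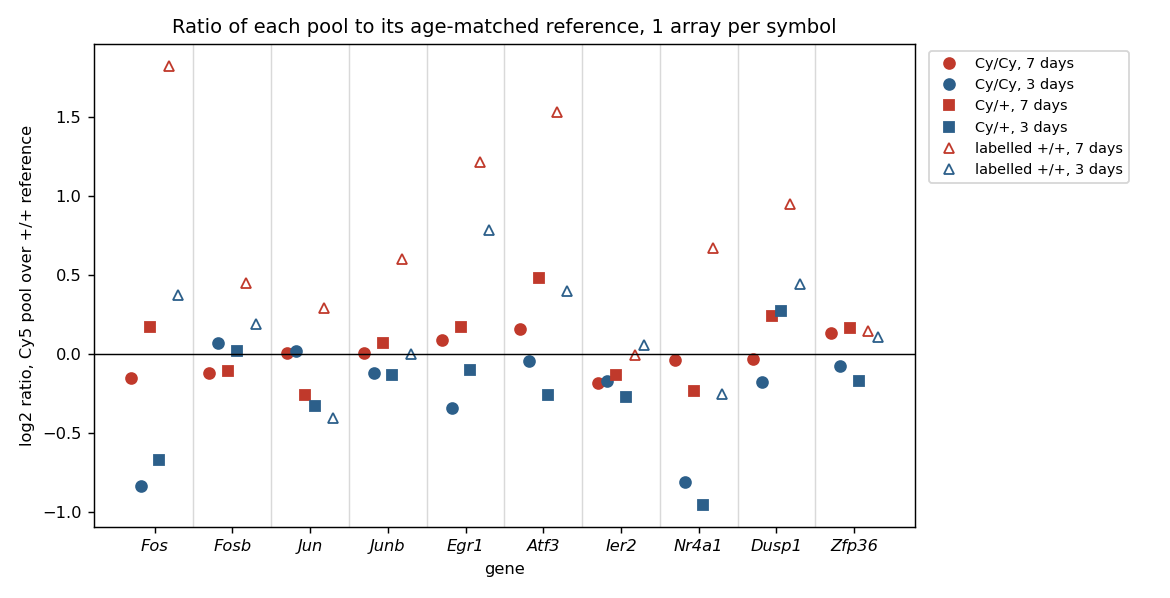
Log2 ratio of the Cy5 pool over the age-matched +/+ reference (vertical axis) for the 10 genes, with 1 symbol per array. Circles are Cy/Cy, squares Cy/+ and open triangles the arrays labelled +/+, red at 7 and blue at 3 days. Fos and Nr4a1 are the 2 genes whose blue circle and square lie between -0.67 and -0.95, and the red triangle of Fos, at 1.82, is the highest point.

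Cy/Cy and Cy/+ kidneys were compared directly through their shared reference. The limma fit called 0 members, none with an unadjusted p under 0.05, and 0% of genes, with 407 genes at an unadjusted p under 0.05. Fitted differences ran from -0.36 ± 0.16 for Dusp1 (SE, 95% interval -0.78 to 0.06) to 0.30 ± 0.20 for Jun (SE, 95% interval -0.22 to 0.83). Dusp1 was lower in Cy/Cy than in Cy/+ kidneys at both ages, with ratios of -0.03 against 0.24 at 7 days and -0.18 against 0.27 at 3 days. For Fos the difference was -0.24 ± 0.21 (SE, 95% interval -0.78 to 0.30), so these arrays do not bound it closely.

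Relative to the arrays labelled +/+, several members were lower in both mutants, a direction that depends on what those arrays hold. At least 1.5-fold above the reference were 6 of 10 members on the 7-day array labelled +/+, where 22.7% of genes were, and 1 of 10 on the 3-day array, where 26.3% were. In Cy/Cy kidneys 5 of 10 members were called lower, where 24.4% of genes were, and in Cy/+ kidneys 4 of 10, where 24.6% were. The Fos ratios of the 4 mutant arrays, -0.83 to 0.17, all lay below the 1.82 at 7 days and 0.37 at 3 days of the arrays labelled +/+. It differed by -1.59 ± 0.21 in Cy/Cy (SE, adjusted p = 0.00394) and by -1.35 ± 0.21 in Cy/+ kidneys (SE, adjusted p = 0.00694).

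Egr1 had ratios of 0.08 in Cy/Cy and 0.17 in Cy/+ kidneys at 7 days and of -0.34 and -0.10 at 3 days, against 1.21 and 0.78 on the arrays labelled +/+ at 7 and 3 days. The groups did not overlap, and the differences were -1.12 ± 0.12 for Cy/Cy (SE, adjusted p = 0.00173) and -0.96 ± 0.12 for Cy/+ (SE, adjusted p = 0.00299). Atf3 differed by -0.91 and -0.85 (adjusted p = 0.0349 and 0.0407), and Nr4a1 by -0.63 and -0.80 (adjusted p = 0.0133 and 0.00612), for Cy/Cy and Cy/+ in that order. Dusp1 was called in Cy/Cy, at -0.80 ± 0.16 (SE, adjusted p = 0.0169), and not in Cy/+, at -0.44 ± 0.16 (SE, adjusted p = 0.0934), although Cy/Cy and Cy/+ were not shown to differ for it.

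These calls depended on single arrays. For Cy/Cy, 3 members were called without the 3-day and 2 without the 7-day Cy/Cy array. For Cy/+, 1 was called without either Cy/+ array and 8 without the 3-day array labelled +/+. Markers of liver, muscle, lung and leukocytes were lower in both mutants in the same comparisons, with list medians of -1.97 to -6.22, for all 4, 5, 3 and 5 measured genes, and their part in the members' differences was not tested.

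A further 58 early response genes, of which 54 passed the filter, were described in the same fits. Between the ages 2 were called higher and 6 lower at 7 days, with a list median of -0.15, where the median of all genes was near 0. Of all genes 3.81% were called higher and 3.23% lower. Cebpd, a C/EBP factor of acute phase responses, had 11.77 in Cy/Cy and 12.08 in Cy/+ kidneys at 7 days, against 12.65 and 12.60 at 3 days, and fell by 0.82 (SE 0.11, adjusted p = 0.0275). Per1, a clock gene also induced by cAMP and glucocorticoids, had 8.71 and 9.04 at 7 days, against 9.63 and 9.60 at 3 days in the same pools, and fell by 0.79 (SE 0.10, adjusted p = 0.0249). Mafk, a small Maf factor, fell by 0.66 (SE 0.13, adjusted p = 0.0453), while Ccl2, a monocyte chemokine, had -0.85 ± 0.33 and did not pass (SE, adjusted p = 0.153).

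The other called genes of that list were named after their values were seen. Cebpb, Klf4 and Gadd45a fell, by 0.56, 0.48 and 0.43, and Dusp6, a MAP kinase phosphatase, and Plk2, a polo-like kinase, rose by 0.37 and 0.46.

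In Cy/+ kidneys 5 of the 54 were called lower than the reference and 0 higher, where 2.82% and 4.45% of all genes were. Ptgs2, the inducible cyclooxygenase, stood at log2 ratios of -0.89 (7 days) and -2.08 (3 days), with a mean of -1.48 ± 0.31 (SE, n = 2 arrays, adjusted p = 0.0477). Dusp2, another MAP kinase phosphatase, had -0.86 and -0.83 (mean -0.84 ± 0.10 SE, adjusted p = 0.0167), and Errfi1, an inhibitor of the EGF receptor, had -0.69 and -0.92 (mean -0.81 ± 0.08 SE, adjusted p = 0.0133). In Cy/Cy kidneys 0 of the 54 were called, with Errfi1 at -0.45 ± 0.08 (SE, adjusted p = 0.332).

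Against the arrays labelled +/+, 5 of the 54 were called higher and 15 lower in Cy/Cy, and 6 higher and 16 lower in Cy/+. Of all genes 12.1% were called higher and 24.4% lower in Cy/Cy, and 13.1% higher and 24.6% lower in Cy/+, so the list's lower shares lie near the background. Egr2, a zinc finger factor of the Egr1 family, differed by -3.44 and -3.09 on the log2 scale, Klf4 by -3.06 and -2.82, and Ptgs2 by 3.15 and 1.99, for Cy/Cy and Cy/+ in that order.

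Kinases and transcription factors known to drive these genes, and further partners of AP-1, were described in the same way. Of 21 listed regulators, among them Srf and Creb1, 0 were called (limma) at 7 against 3 days, and the list median was 0.03. The largest value was that of Atf1, a CREB family factor, at 0.31 ± 0.09 (SE, adjusted p = 0.0962). Of 12 listed AP-1 partners 0 were called between the ages, with a median of -0.14. In Cy/+ kidneys against the reference 1 regulator was higher, the kinase Rps6ka3 (0.43 ± 0.09 SE, adjusted p = 0.0464), and 2 partners were lower, Maf (-0.52 ± 0.11 SE, adjusted p = 0.0469) and Mafg (-0.43 ± 0.08 SE, adjusted p = 0.0394).

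**Figure D4:**
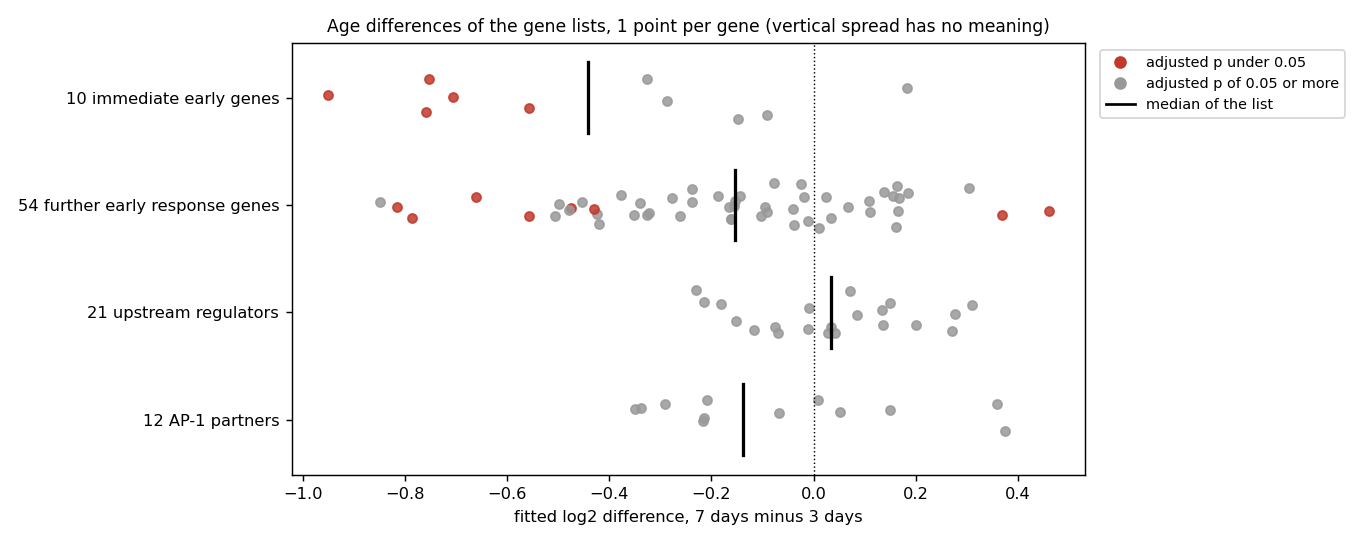
Fitted log2 difference between 7 and 3 days (horizontal axis) for the immediate early genes and the 3 further lists, 1 point per gene, red where the adjusted p was under 0.05. The black bar is the median of a list. The immediate early genes have a median of -0.44 with 5 red points, and the regulators a median of 0.03 with 0.

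The members did not vary alike. Each gene was centred within each dye over the 8 channel values of the 4 mutant arrays and set against the mean of the other 9 members, in which the genes with the largest steps weigh most. Fos, Atf3, Zfp36 and Junb followed that mean with r of 0.978 to 0.992, Nr4a1 with 0.941, and Ier2, Egr1 and Jun with 0.872 to 0.912. Dusp1 had 0.392 and Fosb -0.719. The 8 values hold the step between the ages, so these r values are no separate support for the age calls. The share of all genes with such r was not computed. The genes outside the members most like the mean of all 10 were Irf7 (r = 0.996), Rbp4, Rhbdf1, Asgr1 and Mturn (the last at 0.994), across 8 values from 4 arrays that share slides and a reference. Of these Rbp4, the plasma carrier of retinol, had the largest fitted age difference, -1.57, and the other 4 had -0.35 to -0.57.

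The upstream sequences of Nr4a1, Junb and Dusp1 are shown, since Nr4a1 and Junb were called lower at 7 days and Dusp1 was not. They are the 250 bases before the gene start in RefSeq, assembly GRCr8, for chr7:134259888-134260137, chr19:40080876-40081125 and chr10:17184603-17184852, all on the plus strand. Capitals mark TGACG, the core of the cAMP response element (CGTCA on the other strand), and TATAAA.
Nr4a1: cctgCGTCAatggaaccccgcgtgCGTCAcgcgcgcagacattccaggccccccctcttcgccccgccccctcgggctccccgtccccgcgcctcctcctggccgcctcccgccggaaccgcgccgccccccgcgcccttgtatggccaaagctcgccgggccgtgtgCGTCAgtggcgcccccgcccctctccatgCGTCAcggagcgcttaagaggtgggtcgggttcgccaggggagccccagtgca
Junb: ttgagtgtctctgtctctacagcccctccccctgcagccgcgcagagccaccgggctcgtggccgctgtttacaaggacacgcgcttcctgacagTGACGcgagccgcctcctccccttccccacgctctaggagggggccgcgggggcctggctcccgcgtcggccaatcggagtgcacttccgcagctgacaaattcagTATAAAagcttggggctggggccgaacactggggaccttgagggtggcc
Dusp1: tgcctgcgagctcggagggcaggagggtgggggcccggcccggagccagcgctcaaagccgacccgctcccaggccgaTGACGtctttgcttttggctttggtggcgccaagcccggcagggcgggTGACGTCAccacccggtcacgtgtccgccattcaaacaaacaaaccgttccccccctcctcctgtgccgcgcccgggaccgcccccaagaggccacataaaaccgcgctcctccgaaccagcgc

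RefSeq promoters were matched for 7 of the 10 members, all but Fos, Jun and Atf3. Searched on both strands of the 250 bases, TGACG was in 5 of 7, Nr4a1, Dusp1, Egr1, Ier2 and Junb, and in 18.2% of 33469 rat promoters. The full palindrome TGACGTCA, which holds TGACG on each strand, was in Dusp1 and Ier2, 2 of 7, and in 1.6% of promoters. The CArG box, the binding sequence of Srf, was in Egr1 and Zfp36, 2 of 7, and in 1.5%. The AP-1 sequence TGANTCA was in 0 of 7 and in 6.3%, and TATAAA was in Fosb and Junb, 2 of 7, and in 12.9%. Nr4a1 held 4 TGACG matches, at 246, 226, 82 and 53 bases before the start. Both members called lower at 7 days that had an entry held TGACG, as did 3 of the 5 others.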

How the data were processed

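RNA labelled as kidney, of 6 Cy5 pools and a Cy3 reference of each age, was measured on 2-colour 60-mer arrays. Per the file headers (Agilent Feature Extraction 9.5.1.1), spot signals and backgrounds were deposited as intensity without normalization. Processed signals were deposited as intensity after background subtraction and dye normalization by that software. Where the series text gives a different array and software version, the headers were followed. A log10 ratio of processed Cy5 over Cy3 was also deposited, equal to the values of the series table, with a median of -0.0159 on the 3-day array labelled +/+ and 0 elsewhere. The deposited p-value of each spot was not used.

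Signals were corrected with normexp (offset 50) and normalized by loess in limma 3.58.1 (R 4.3.3 with data.table, version 1.17.8). Control spots and outlier flags (125 to 192 spots per array) had weight 0, and spots of a probe were averaged. Probes were kept where 2 or more arrays showed them well above background in a channel, 30934 of 41012. Probes were named through a RefSeq gene table of GRCr8 (10735 by accession, 117 by another accession, 5542 by symbol, 3704 by synonym, 41 matched several genes and 20873 none), and a gene was its brightest probe. Columns of values not mapped to a sample numbered 0.

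Ratios were fitted with lmFit and eBayes across all 12818 genes and adjusted by Benjamini-Hochberg at 0.05. The mutant ratios were tested against 0 over 4 arrays (2 residual degrees of freedom), so the reference counts as 1 control pool whose own spread is left out. Contrasts with the arrays labelled +/+ had age as a term. For the ages, channels were separated after loess and Aquantile, and the reference (mean of 3 hybridisations), Cy/Cy and Cy/+ pools entered with pool as a block. Part of the reference comes from Cy3 of the mutant arrays, so pools are not independent.

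The members and gene lists were chosen with earlier results of these data known. Genes named are the 10 members, up to 4 of each list with the largest fitted value, and the 5 most like the members, and beside these 5 early response genes called between the ages and marker genes, chosen after their values were seen. Counts in the reference without the arrays labelled +/+ and the mean of the other members were added after the data were seen.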

Additional observations from a re-analysis of the deposited data

Results flagged for a closer look

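Opposite signs with sizes of at least 0.2 (log2) on both sides were listed, 7 results in all, and none of these differences was tested. The Atf3 ratio of the Cy/+ array was 0.48 at 7 days and -0.26 at 3 days, a difference of 0.743. On the arrays labelled +/+, the Jun ratio was 0.29 at 7 days and -0.41 at 3 days (difference 0.696), and the Nr4a1 ratio was 0.67 and -0.26 (difference 0.929).

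Fos was lower at 7 than at 3 days in the Cy/Cy (-0.89), Cy/+ (-0.60) and reference (-1.36) pools and higher in the Cy5 pool labelled +/+ (0.38). The Cy/Cy and Cy/+ changes differed from that of the labelled +/+ pool by -1.271 and -0.983, and the labelled +/+ change differed from that of the reference by 1.74. Dusp1 changed by -0.23 in the Cy/+ pool and by 0.32 in the pool labelled +/+, a difference of -0.547. Of these 7 results, 6 involve the arrays labelled +/+.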

How the results depend on the processing

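Arrays could not be paired by replicate, because each genotype and age had 1 array and the labels give no replicate numbers. The blocks used were the pool for the ages, which were so compared within each pool, and the slide for the mutant ratios. Under median centring, which moved the median log2 ratio of all genes by 0.198 to 0.371, 6355 genes and 3 members were called for Cy/Cy and 7295 genes and 5 members for Cy/+ against the reference. There Jun and Ier2 reversed in Cy/+, to 0.339 and 0.478. The cause was not tested. With the software's log ratios the Cy/+ count against the reference was 0 genes, and 3 members (Cy/Cy) and 2 members (Cy/+) were called against the arrays labelled +/+. Scaling between arrays gave 2 genes for Cy/Cy and 410 for Cy/+, and no filter gave 1 for Cy/Cy. The slide block gave 9 genes for Cy/Cy and 1980 genes and 2 members for Cy/+. For the ages, the software's processed signals and the added labelled +/+ pool each gave 0 genes and 0 members.

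Leaving out single arrays or pools (a lone array is assumed to vary like the others) gave 0 to 1 genes for Cy/Cy and 87 to 692 for Cy/+ against the reference. Against the arrays labelled +/+ it gave 2102 to 5544 genes and 2 to 7 members for Cy/Cy, and 2257 to 5693 genes and 1 to 8 members for Cy/+. For the ages it gave 0 to 1551 genes and 0 to 5 members. The ratio of Fos in Cy/+ against the reference ranged from -0.672 to 0.166, turning sign without the 3-day array, and that of Jun against the arrays labelled +/+ from -0.568 to 0.098. For the comparison of Cy/Cy with Cy/+, 0 genes were called under every alternative run. Under settings other than leaving out, 59 counts stayed within 1.5 times the value given and 17 did not. With single arrays or pools left out, 22 counts stayed within it and 16 did not. A count of 0 that remained 0 was taken as staying. Brightness limits Fos, Fosb, Junb and Zfp36, whose spot signals were 74.6 to 221 on the 7-day mutant arrays.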
